A study of Rattus norvegicus with 5 samples.

Results

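Interferon regulators and interferon-induced genes are the transcripts that cells use to sense and answer interferons. They were followed here as 45 named genes on expression arrays of the mesenteric fat that surrounds the pancreas of male Wistar rats. A gene was measured where a probe set of the array was annotated with its symbol and no other, and the probe set with the highest mean over the arrays stood for the gene. This gave 41 of the 45 genes, out of 14217 genes named in this way. Ddx58, Xaf1, Gbp5 and Ifi47 had no probe set under these symbols. The standard group was 3 rats on chow, in which fat made up 8% of the calories. The cafeteria group, called obese in the labels, was 2 rats whose diet drew 66% of its calories from fat. The rats were 7 weeks old at the start of the feeding, which lasted 30 days. The labels call the samples, 1 per array, independent. Values are log2 expression levels, so a difference of -1 is a halving of the signal, and every difference below is cafeteria minus standard.

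Type I interferons bind the receptor pair Ifnar1 and Ifnar2, and the kinases Jak1 and Tyk2 then pass the signal on to Stat2. Stat2 and Irf9 act in a complex that binds the interferon-stimulated response element (ISRE), and genes such as Mx1 and Isg15 follow. Interferon gamma binds Ifngr1 and Ifngr2 and acts on the gamma-activated site (GAS), with Irf1 as an early target and the interferon-inducible GTPases as later ones. Both fat cells and the leukocytes of fat respond to interferons.

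Of the 41 genes, 38 read lower in cafeteria samples, with a median difference of -0.38. Over all 11509 genes tested, 50.6% read lower and the median difference was -0.0027. The difference was below -0.3 in 25 of the 41 genes, against 9.96% of all genes. The groups were apart, with the higher cafeteria value under the lowest standard value, in 24 of the 41 genes, against 14.7% of all genes, and in no member was the order the opposite. No member passed an adjusted p of 0.05 over the whole table (limma, adjusted p from 0.163 to 1.00, with 0% of all genes called), and 19 had an unadjusted p under 0.05, all of them lower in cafeteria samples, against 6.88% of all genes. The medians by role were -0.63 for 4 gamma-type GTPases, -0.44 for 8 regulators, -0.39 for 4 sensors, -0.38 for 3 peptide loading genes and -0.33 for 22 type I effectors. The members were chosen with these data known, so the counts describe them and give no independent evidence of a direction.

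**Figure D1:**
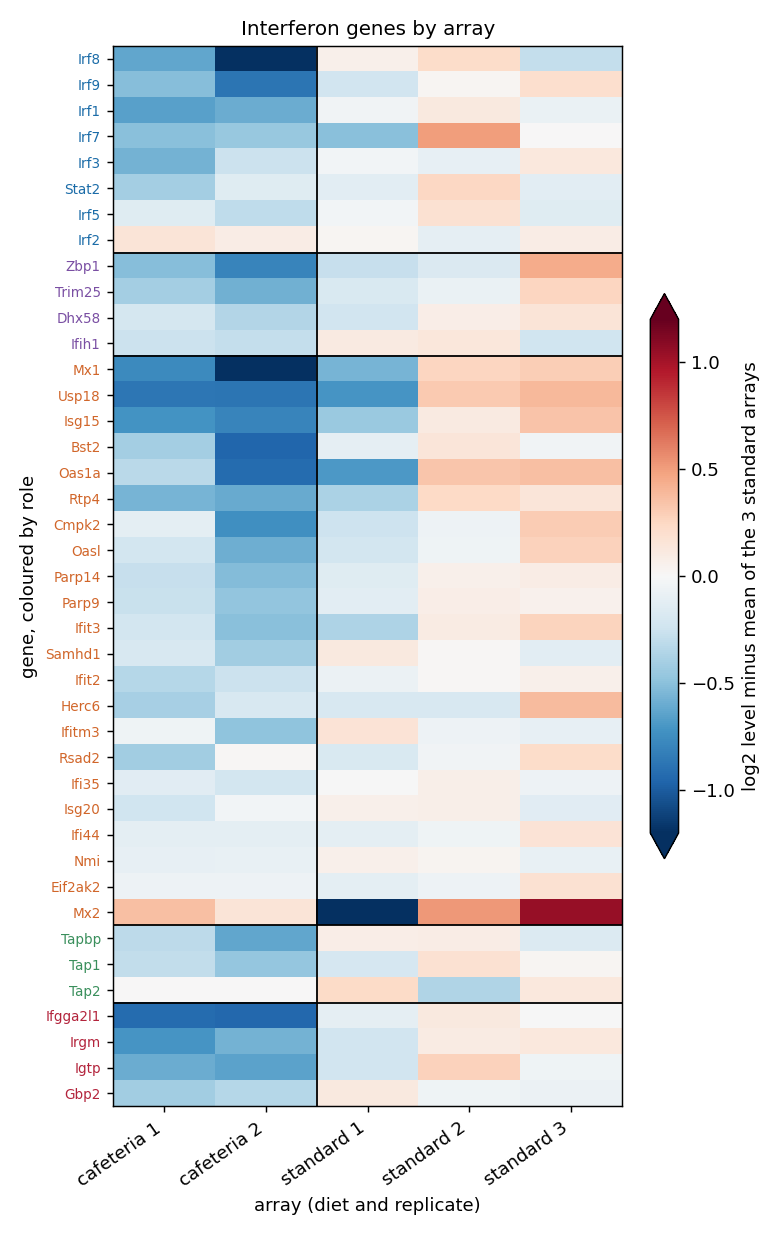
Heat map of the log2 level of each of 41 interferon genes on each of 5 arrays, relative to the mean of the 3 standard arrays of that gene (colour scale, blue lower and red higher, with values past ±1.2 at the end colours). Rows are grouped by role and ordered by the difference between diets, and both cafeteria columns are blue in nearly all rows, while standard replicate 1 is blue in many type I effector rows.

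The number of arrays limits every comparison. An exact permutation test, two-sided, over the 10 possible splits of 5 arrays cannot give less than p = 0.1, and 15 of the 24 members whose groups did not overlap reached it. The share of all genes that reach it was not counted, so the 15 cannot be set against a background. The count of 19 moved with single arrays: dropping standard replicate 1, 2 or 3 gave 20, 7 or 14 members. The matching numbers of probe sets over the whole array were 2067, 1986 and 2328, against 2754 with every array in. Fits that drop a cafeteria array keep only 1 in that group, so their counts are not given. Dropping cafeteria replicate 1 or 2 moved the median difference of the members to -0.48 or -0.33. The count of lower members stayed between 37 and 39 when any 1 array was left out. Over the whole table, 11.7% to 14.7% of probe sets had the same deposited value on a given pair of arrays. In 8 of the 41 genes the deposited value was identical on at least 2 arrays, which makes their spread uncertain. Markers of pancreatic acinar cells stood out on standard replicate 1: the mean level of 18 of them was 8.03 there and 4.37 to 4.62 on the other arrays, and 4 of the 18 were below the filter on dim probe sets. Cpa1 and Cela3b were not confined to that array. Cpa1 read 7.38 and 9.07 on the cafeteria arrays and 9.37, 5.34 and 5.94 on the standard arrays. Cela3b read 9.52 and 6.46 on the cafeteria arrays and 9.86, 9.70 and 8.88 on the standard arrays. All 10 adipocyte markers were among the tested probe sets, with a mean level of 11.92 to 12.54.

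The promoters of the members show which of the 2 interferon response elements stand near their starts. RefSeq promoter windows of the GRCr8 build, 250 bases before to 50 bases after the start, were found for 33 of the 41 genes. The letters GAAA, any 2 bases and GAAA again, searched on both strands as the core of the ISRE and allowed to overlap, stood in 19 of these 33 windows, against 3.77% of all 27457 windows. The letters TTCNNNGAA, the core of the GAS, which read the same on both strands, stood in 11 of the 33, against 8.68% of all windows. All 4 measured GTPases had the ISRE letters and 3 of them the GAS letters, whereas 1 of 7 regulators had the ISRE letters and 3 of 7 the GAS letters. Of 17 type I effectors, 10 had the ISRE letters and 5 the GAS letters, and all 3 peptide loading genes had the ISRE letters alone. A match of letters is a description and not a binding site.

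In Igtp, Irgm and Parp14 the GAS letters began exactly 11 bases before the ISRE letters. This spacing, noticed in the windows and then counted, occurred in 4 of 27457 windows, or 0.0146%, and the windows of these 3 genes are among the 4. Only this order along the strand of the gene was counted, and the mirrored arrangement was not. Both sets of letters stood in 144 of all windows and in 7 of the 33 member windows. The windows are shown 5′ to 3′ on the strand of the gene, with both kinds of letters in capitals, since these 3 genes share an arrangement across 2 role groups.
Igtp (chr10:42874923-42874982, plus strand): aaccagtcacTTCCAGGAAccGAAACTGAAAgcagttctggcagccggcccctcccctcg
Irgm (chr10:33742574-33742633, minus strand): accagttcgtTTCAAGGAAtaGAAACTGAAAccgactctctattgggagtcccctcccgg
Parp14 (chr11:78408037-78408096, plus strand): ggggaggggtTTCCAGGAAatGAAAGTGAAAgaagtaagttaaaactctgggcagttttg

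The window of Ifgga2l1, the member with the smallest p, is shown at greater length because its motifs are spread over it. The GAS letters begin 174, 123 and 6 bases before the start, and the ISRE letters, on the opposite strand, begin 136 bases before it. Gbp2 has the ISRE letters alone.
Ifgga2l1 (chr18:56031723-56031922, plus strand): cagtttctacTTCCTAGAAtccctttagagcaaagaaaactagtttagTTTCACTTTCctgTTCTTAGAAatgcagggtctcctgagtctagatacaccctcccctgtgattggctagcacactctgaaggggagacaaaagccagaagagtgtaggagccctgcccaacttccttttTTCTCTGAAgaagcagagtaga
Gbp2 (chr2:234005686-234005745, plus strand): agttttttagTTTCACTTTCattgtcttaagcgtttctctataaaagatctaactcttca

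The next windows belong to regulators with the GAS letters and no ISRE letters in the searched window, and to genes whose ISRE letters overlap a second copy. Irf8 holds 2 copies of the GAS letters. In Bst2 the GAS letters run into overlapping copies of the ISRE letters.
Irf1 (chr10:38417783-38417842, plus strand): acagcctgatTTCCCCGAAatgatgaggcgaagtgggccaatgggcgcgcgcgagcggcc
Irf8 (chr19:65699094-65699153, plus strand): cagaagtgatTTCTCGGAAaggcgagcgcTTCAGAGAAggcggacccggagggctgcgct
Tapbp (chr20:4967854-4967913, minus strand): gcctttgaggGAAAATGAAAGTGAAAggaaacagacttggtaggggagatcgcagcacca
Oas1a (chr12:41330415-41330474, plus strand): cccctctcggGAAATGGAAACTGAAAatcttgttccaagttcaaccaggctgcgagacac
Bst2 (chr16:18255055-18255114, minus strand): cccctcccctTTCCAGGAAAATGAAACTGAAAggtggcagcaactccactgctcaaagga

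Differences between diets are given here beside the motifs, as a description. The median difference was -0.38 over the 19 members with ISRE letters and -0.41 over the 14 without them. It was -0.63 over the 11 members with GAS letters, 7 of which have the ISRE letters too, and -0.39 over the 10 members with neither. Mx1, one of the members with the largest difference, has neither set of letters in its window.

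The interferons themselves gave no usable signal. Probe sets of Ifnb1, Ifng and Ifnk lay below the filter on dim probe sets, and the Ifnb1 value was 3.28 on all 5 arrays. Of the 6 receptor genes, 5 read lower in cafeteria samples, with a median of -0.11. Over all genes, 6.88% were lower with an unadjusted p under 0.05, and so was 1 receptor gene. That gene was Ifngr1, the ligand-binding chain of the gamma receptor, which read 9.37 and 9.38 on the cafeteria arrays and 9.70, 9.72 and 9.57 on the standard arrays, a difference of -0.29 ± 0.07 (SE; limma, adjusted p = 0.276). The groups did not overlap for Ifngr1. Ifnar1, a chain of the type I receptor, differed by -0.18, and 4 of its 6 probe sets had that sign. Leaving out standard replicate 1, the array with the highest mean level of acinar markers, gave -0.08 for Ifnar1.

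Among 5 kinase and STAT genes outside the members, 4 read lower. Stat4, a STAT used by lymphocytes, read 4.77 and 4.78 in cafeteria and 5.39, 5.06 and 5.05 in standard samples, a difference of -0.39 ± 0.13 (limma, adjusted p = 0.349). The value of Stat3, a STAT of interleukin signals, differed between the cafeteria arrays: it read 7.41 on cafeteria replicate 1 and 9.19 on cafeteria replicate 2, against 9.34, 9.67 and 9.55 in standard samples. The receptor kinases Jak1, Jak2 and Tyk2 differed by 0.08, -0.20 and -0.17, and single arrays moved these values: Jak2 ranged from -0.34 without standard replicate 3 to -0.09 without standard replicate 1, Jak1 reached 0.01 without cafeteria replicate 2, and Tyk2 reached -0.10 without cafeteria replicate 1. Stat3 was -0.33 without cafeteria replicate 1. Of 5 genes that restrain the pathway, 3 read lower. An unadjusted p under 0.05 with a lower mean was found in 2, against 6.88% of all genes. These were Ptpn2, a phosphatase of the kinases, at -0.16 (-0.10 without cafeteria replicate 2) and Pias1, a SUMO ligase, at -0.23. The feedback inhibitor Socs3 had the identical deposited value, 5.32, on every array, so its spread is unknown and it says nothing on a steady level. Of 8 genes that carry signals from nucleic acid sensors and Toll-like receptors to the interferon genes, 5 read lower, with a median of -0.08. Sting1, the adaptor of the cytosolic DNA sensor, differed by -0.26 (-0.14 without cafeteria replicate 2) and Irak1, a Toll-like receptor kinase, by 0.20.

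The regulators are transcription factors, and 7 of 8 read lower in cafeteria samples. Irf1, an early target of interferon gamma that switches on further genes, read 8.45 and 8.51 on the cafeteria arrays and 9.06, 9.22 and 9.02 on the standard arrays. The groups were well apart, and the difference of -0.62 ± 0.08 (SE, n = 2 and 3) had a 95% interval of -0.84 to -0.41 (limma, adjusted p = 0.222). It lay between -0.66 and -0.56 when any 1 array was left out. Its promoter window carries the GAS letters shown above.

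Irf8, a factor of macrophages, dendritic cells and B cells, read 7.31 and 6.50 in cafeteria samples and 8.01, 8.16 and 7.66 in standard samples. Every cafeteria value was below every standard value, but the cafeteria arrays differed from each other more than the standard arrays did. The difference of -1.04 ± 0.30, or a 2.05-fold lower level, was the largest of the regulators (limma, adjusted p = 0.321). Leaving out cafeteria replicate 1 gave -1.44, and leaving out cafeteria replicate 2 gave -0.63.

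Irf9 and Stat2 act in the complex that answers type I interferon. Irf9 read 8.06 and 7.69 in cafeteria and 8.34, 8.59 and 8.77 in standard samples, again without overlap, a difference of -0.70 ± 0.18 (limma, adjusted p = 0.297). A second Irf9 probe set gave -0.74. Stat2 read 7.68 and 7.94 against 7.96, 8.33 and 7.96, a difference of -0.27 ± 0.16 that was -0.14 without cafeteria replicate 1 and -0.15 without standard replicate 2. The upper cafeteria value of Stat2 and the lower pair of standard values nearly met, and its other probe set gave -0.16.

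Irf7, the factor that amplifies the interferon alpha genes, showed another pattern. It read 8.33 and 8.37 in cafeteria samples and 8.32, 9.33 and 8.83 in standard samples, so standard replicate 1 sat with the cafeteria arrays. The difference of -0.48 ± 0.31 (limma, adjusted p = 0.518) was -0.73 without standard replicate 1 and -0.23 without standard replicate 2. Irf3, which is present before infection and starts interferon beta transcription, read 8.35 and 8.66 against 8.89, 8.82 and 9.04, with no overlap and a difference of -0.41 ± 0.12 that was -0.26 without cafeteria replicate 1. Irf5, a factor of inflammatory macrophages, read 6.75 and 6.59 against 6.86, 7.08 and 6.75, and the groups met at the value 6.75. Its difference was -0.22, with -0.13 without standard replicate 2 and -0.15 without cafeteria replicate 2. Irf2, known as a competitor of Irf1 at its sites, was the only regulator with a higher mean in cafeteria samples, at 7.10 and 7.03 against 6.97, 6.84 and 7.03. Its difference of 0.12 ± 0.08 had an interval of -0.09 to 0.33 and was 0.07 without standard replicate 2. Its 2 other probe sets gave 0.14 and 0.06, the second below the filter.

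**Figure D2:**
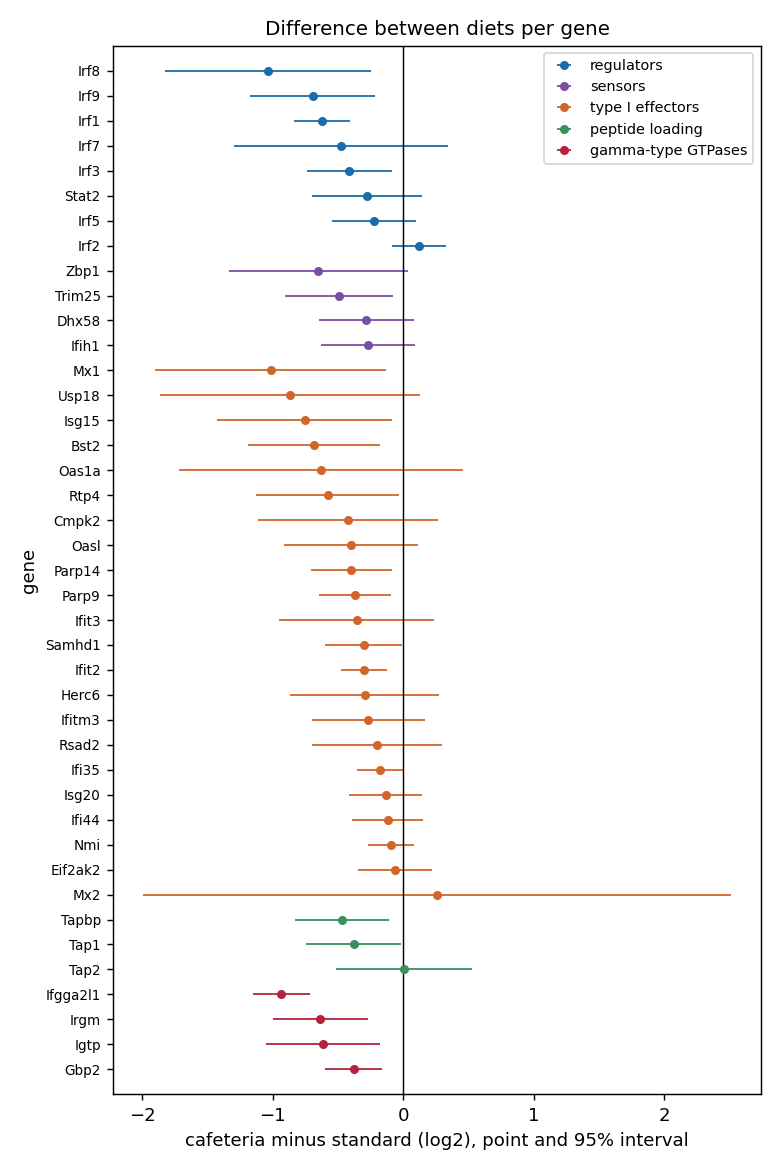
Difference between diets (cafeteria minus standard, log2) for each of 41 interferon genes, coloured by role, with the 95% interval from limma. Points left of 0 are lower in cafeteria samples. The 4 GTPase intervals all lie below 0, and the widest interval is that of Mx2.

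The sensors detect foreign nucleic acid and feed into the induction of interferon. All 4 with a probe set read lower in cafeteria samples, and 3 of them without overlap, against 14.7% of all genes. Zbp1, a sensor of left-handed nucleic acid, read 4.55 and 4.27 against 4.78, 4.89 and 5.50, a difference of -0.65 ± 0.26 that was -0.43 without standard replicate 3. Trim25, a ubiquitin ligase that acts on the RNA sensor encoded by Ddx58, read 8.51 and 8.34 against 8.74, 8.84 and 9.18, a difference of -0.49 ± 0.16 (limma, adjusted p = 0.345). Standard replicate 3 was the highest array for both genes.

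Ifih1, the sensor MDA5 of long double-stranded RNA, read 6.26 and 6.23 in cafeteria and 6.63, 6.65 and 6.28 in standard samples. Its lowest standard array all but touched the cafeteria arrays, and the difference was -0.27 ± 0.14. Dhx58, a related helicase, read 4.61 and 4.47 against 4.59, 4.90 and 4.98 with overlap, and its 3 probe sets gave -0.28, -0.27 and -0.26. RefSeq lists Ddx58 as an older symbol of a gene called Rig1, which had a probe set of its own outside the 41. It read 7.63 and 7.54 in cafeteria samples and 7.37, 7.64 and 7.96 in standard samples, a difference of -0.08 ± 0.19, with the groups overlapping.

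The type I effectors carry out the antiviral state, and 21 of 22 read lower in cafeteria samples. In 10 of them the groups were apart, cafeteria lower, against 14.7% of all genes. An unadjusted p under 0.05 with a lower cafeteria mean was found in 8, against 6.88% of all genes. Mx1, a dynamin-like GTPase active against influenza viruses, read 6.52 and 6.02 in cafeteria and 6.73, 7.54 and 7.58 in standard samples. Standard replicate 1 lay closer to the cafeteria arrays than to the other standard arrays. The difference of -1.02 ± 0.33 (limma, adjusted p = 0.353) was the largest of the effectors, 2.02-fold.

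Isg15, a ubiquitin-like modifier, read 7.44 and 7.35 against 7.70, 8.26 and 8.49, a difference of -0.75 ± 0.25 (limma, adjusted p = 0.355). Rtp4, a receptor chaperone induced by interferon, read 7.87 and 7.81 against 8.04, 8.65 and 8.56, a difference of -0.58 ± 0.21. In both genes standard replicate 1 was the lowest of the standard arrays by a wide margin. Without that array the differences were -0.98 for Isg15 and -0.77 for Rtp4.

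Bst2, known as tetherin, holds budding viruses at the cell surface. It read 10.30 and 9.75 in cafeteria and 10.60, 10.86 and 10.66 in standard samples, a difference of -0.68 ± 0.19 (limma, adjusted p = 0.317), and -0.41 without cafeteria replicate 2. Here the standard arrays were close together, and cafeteria replicate 2 was far below the rest. Parp9 and Parp14 are ADP-ribosyltransferase family members. Parp9 read 8.48 and 8.27 against 8.62, 8.82 and 8.80, a difference of -0.37 ± 0.10. Parp14, with the spaced motifs shown above, read 7.92 and 7.67 against 8.05, 8.25 and 8.28, a difference of -0.40 ± 0.12, and its other probe set gave -0.35. Neither gene's groups overlapped.

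Ifit2, which binds RNA and limits translation, had the smallest p of the effectors with a modest difference. It read 8.38 and 8.47 in cafeteria and 8.65, 8.74 and 8.78 in standard samples, a difference of -0.30 ± 0.07 (limma, adjusted p = 0.276), and its second probe set gave -0.30. Samhd1, which degrades the nucleotides that retroviruses need, read 5.66 and 5.44 against 5.97, 5.86 and 5.73, a difference of -0.30 ± 0.11 that was -0.19 without cafeteria replicate 2. The groups did not overlap for either.

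Mx2 was the only effector with a higher cafeteria mean, and its probe sets disagreed. The brighter one read 7.72 and 7.52 in cafeteria and 5.79, 7.88 and 8.41 in standard samples, so standard replicate 1 was far below every other array, and the difference was 0.26 ± 0.85. Without that array it was -0.53. The second probe set read 5.35 and 4.84 against 5.35, 5.96 and 6.60, a difference of -0.88 ± 0.41. Mx genes are close in sequence, and a probe set of one could hybridise with the other.

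The other 13 effectors all read lower with every array in, by -0.87 to -0.06, with adjusted p between 0.401 and 0.781 (limma). In 2 of the 13 the groups did not overlap, against 14.7% of all genes with both cafeteria arrays lower. Rsad2 came to 0.02 without cafeteria replicate 1 and Eif2ak2 to 0.03 without standard replicate 3. These genes, which changed sign, and Usp18 and Oas1a, in which standard replicate 1 stood apart from the other standard arrays, are named after their values were seen. Usp18, which removes Isg15 from proteins and restrains the type I receptor, read 6.48 and 6.47 in cafeteria and 6.64, 7.66 and 7.74 in standard samples. Oas1a, which makes the activator of the antiviral RNase, read 6.68 and 6.08 against 6.32, 7.34 and 7.37. In both genes standard replicate 1 lay with the cafeteria arrays and more than 1 log2 unit below the mean of the other standard arrays, by -1.06 in Usp18 and -1.03 in Oas1a. The Oas1a difference of -0.63 was -0.33 without cafeteria replicate 2 and -0.97 without standard replicate 1.

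Standard replicate 1 was the lowest standard array in 16 of the 22 effectors, against 31.7% of all genes, and in 2 of 8 regulators and 3 of 4 GTPases. Its median distance from the mean of the other 2 standard arrays was -0.24 over the effectors, -0.05 over the regulators, -0.25 over the GTPases and 0.00 over all genes. The cafeteria mean lay below standard replicate 1 alone by a median of -0.18 in the effectors, -0.29 in the regulators and -0.45 in the GTPases. In 5 of the 22 effectors standard replicate 1 was at or below the cafeteria mean. This is the array with the highest mean level of acinar markers, and the part of acinar transcripts in the effector values was not tested. Left out, it moved the effector median from -0.33 to -0.45 and the GTPase median from -0.63 to -0.74.

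**Figure D3:**
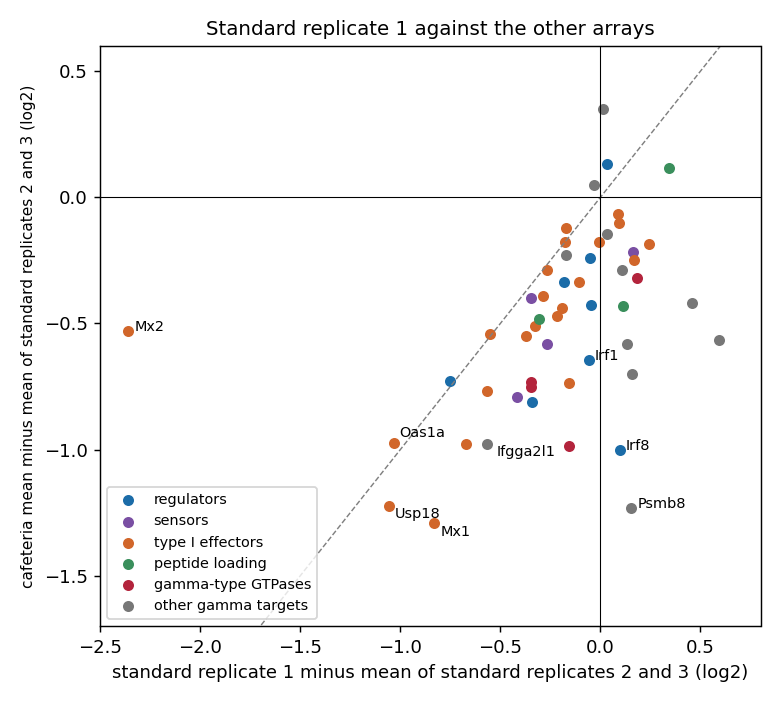
Each point is 1 gene, with standard replicate 1 minus the mean of standard replicates 2 and 3 on the x axis and the cafeteria mean minus the same mean on the y axis, both in log2. On the dashed line standard replicate 1 equals the cafeteria mean; Oas1a (-1.03, -0.97) and Usp18 (-1.06, -1.22) lie near it, while Irf1 (-0.06, -0.64) and Ifgga2l1 (-0.16, -0.99) lie far below it.

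Tap1 and Tap2 form the transporter that carries peptides to class I molecules, and Tapbp (tapasin) bridges the transporter to them. Tapbp read 7.73 and 7.42 in cafeteria and 8.12, 8.14 and 7.88 in standard samples, a difference of -0.47 ± 0.14 (limma, adjusted p = 0.321) without overlap. Tap1 read 7.35 and 7.18 against 7.44, 7.82 and 7.67, a difference of -0.38 ± 0.14, also without overlap. Tap2 did not share this: it read 7.57 and 7.58 against 7.80, 7.21 and 7.70, so the cafeteria arrays sat inside the standard range and the difference was 0.00, with an interval of -0.52 to 0.53. It was -0.18 without standard replicate 2, the array on which Tap2 was lowest.

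The gamma-type GTPases act on the vacuoles of intracellular microbes, and all 4 that were measured read lower on both cafeteria arrays than on any standard array. Over all genes this held for 14.7%. Ifgga2l1, a member of the immunity-related GTPase family, read 8.20 and 8.19 in cafeteria and 9.02, 9.24 and 9.12 in standard samples. The arrays of each diet were close together, and the difference of -0.93 ± 0.08, a 1.91-fold lower level with an interval of -1.15 to -0.72, had the smallest p of all members (limma, adjusted p = 0.163). It lay between -0.99 and -0.88 when any 1 array was left out.

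Irgm, a regulator of the other GTPases of this family, read 7.19 and 7.33 against 7.66, 8.00 and 8.03, a difference of -0.64 ± 0.14 (limma, adjusted p = 0.276). Igtp, of the same regulatory kind, read 7.47 and 7.42 against 7.83, 8.34 and 8.02, a difference of -0.62 ± 0.16 (limma, adjusted p = 0.305), and its second probe set gave -0.74. All values of Irgm and Igtp were lower on the cafeteria arrays, and their promoters are the ones shown with the spaced motifs. Gbp2, a guanylate-binding protein of the other GTPase family, read 8.52 and 8.60 against 9.06, 8.89 and 8.88, a smaller difference of -0.38 ± 0.08 (limma, adjusted p = 0.276). A dim probe set assigned jointly to Igtpl1, Irgm2 and Igtp was not counted, and its groups overlapped. These genes have close relatives in the rat genome, and probe sets could hybridise with them.

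Other targets of interferon gamma, listed apart from the members, had a median of -0.57, with 9 of 11 lower. In 7 of these the groups did not overlap, against 14.7% of all genes. Of the 10 above the filter, 6 were lower with an unadjusted p under 0.05, against 6.88% of all genes. At that threshold 1 was higher, against 6.73% of all genes. Psmb8, a catalytic subunit of the immunoproteasome, read 8.20 and 7.87 in cafeteria and 9.42, 9.42 and 9.11 in standard samples, a difference of -1.28 ± 0.15. Ciita, the master regulator of class II genes, read 5.27 and 5.39 against 6.18, 6.14 and 5.92, a difference of -0.75 ± 0.10 (limma, adjusted p = 0.224). The chemokines that draw T cells read lower too: Cxcl9 differed by -0.62 ± 0.21, Cxcl10 by -0.79 ± 0.47 and Cxcl11 by -0.76 ± 0.24. Cxcl9 and Cxcl11 were apart between the diets, and so, narrowly, was Cxcl10, which differed by -0.38 without cafeteria replicate 2 and -0.41 without standard replicate 2. Standard replicate 1 was the lowest standard array in 1 of the 11. Nos2, the inducible nitric oxide synthase, read higher in cafeteria samples, at 6.60 and 6.61 against 6.27, 6.11 and 6.40, without overlap.

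**Figure D4:**
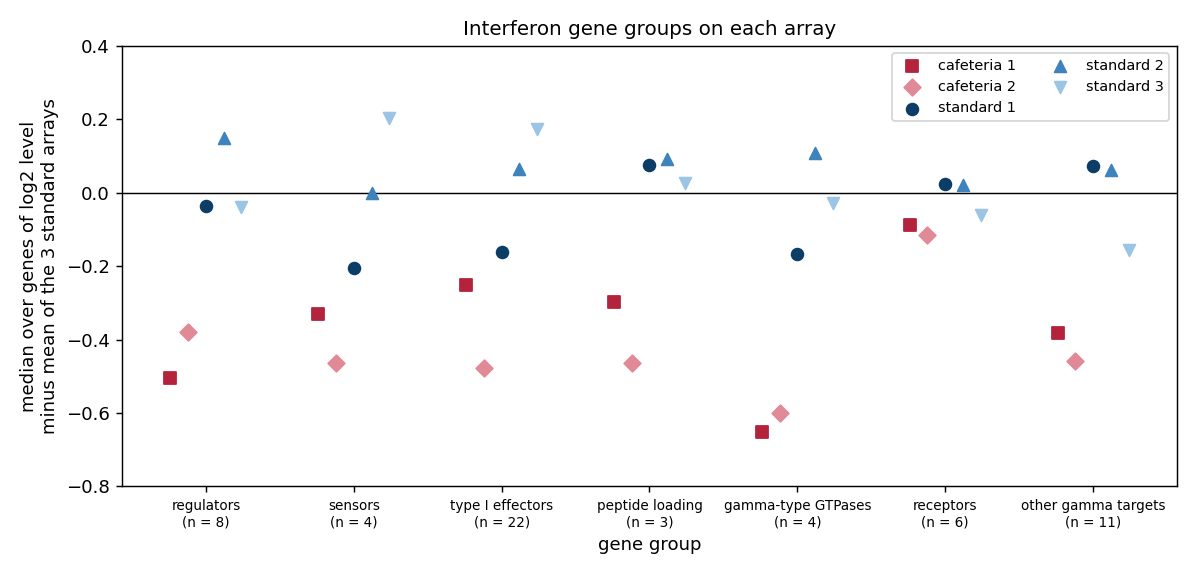
Median over the genes of each group of the log2 level relative to the mean of the 3 standard arrays (y axis), on each of 5 arrays (symbols), for 5 role groups of the members and for the receptors and other gamma targets. In the GTPases the cafeteria arrays sit at -0.65 and -0.60, and in the effectors they sit at -0.25 and -0.48 with standard replicate 1 at -0.16.

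The cafeteria arrays differed from each other in the effectors, with medians of -0.25 for replicate 1 and -0.48 for replicate 2, more than in the GTPases, with -0.65 and -0.60. Cafeteria replicate 2 held the lowest of the 5 values, ties included, in 26 of the 41 members, against 3101 of all 11509 genes tested. The effector median moved to -0.48 when cafeteria replicate 1 was left out, and to -0.25 when it was replicate 2. The difference between gene groups was not tested.

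Markers of leukocytes also read lower in cafeteria samples, with more overlap between the groups. Over all genes, 14.7% read lower without overlap, and 6.88% read lower with an unadjusted p under 0.05. In bulk tissue fewer cells of a type and less RNA per cell cannot be told apart. All 11 macrophage markers read lower in cafeteria samples, with a median of -0.36, but the groups overlapped in every one of them. Their mean level was 9.94 and 9.63 in cafeteria samples and 10.24, 10.17 and 9.81 in standard samples, so standard replicate 3 lay between the cafeteria arrays. The defining marker Cd68 read 8.92 and 8.57 against 9.45, 9.49 and 8.67, and Csf1r, the receptor of the macrophage growth factor, read 9.56 and 9.26 against 9.82, 9.81 and 9.29. Of 16 T cell markers 14 read lower, 5 without overlap, with mean levels of 5.26 and 4.76 against 5.60, 5.54 and 5.26, and Cd8b, Trat1 and Cd28 were below the filter. The defining T cell marker Cd3e differed by -0.80 without overlap, and by -0.40 with cafeteria replicate 2 left out. The groups overlapped in Cd3d, Cd3g and Cd247, which differed by -0.44, -1.16 and -0.53. Of 7 dendritic cell markers 6 read lower, 3 without overlap, with mean levels of 7.49 and 7.17 against 7.72, 7.78 and 7.54. Of 9 natural killer cell markers 8 read lower, with Ncr1, Ncr3, Gzma and Eomes below the filter, and mean levels of 4.62 and 4.44 against 4.78, 4.86 and 4.73. Of 6 B cell markers 4 read lower, with Blk and Cr2 below the filter, and mean levels of 5.41 and 4.63 against 5.30, 5.49 and 5.14. All 12 endothelial markers read lower, 6 of them without overlap and 5 with an unadjusted p under 0.05, with a median of -0.40. Their mean levels were 8.11 and 8.57 in cafeteria samples and 8.72, 8.70 and 8.82 in standard samples, so cafeteria replicate 1 was the lower cafeteria array there. All 8 smooth muscle markers read lower, with a median of -0.79, but the groups overlapped in every one of them. Their mean levels were 8.69 and 8.10 against 9.31, 7.61 and 10.56, so standard replicate 2 was the lowest array and standard replicate 3 the highest.

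On standard replicate 3 the macrophage median was -0.26 relative to the mean of the standard arrays. The medians there were 0.20 for the sensors, 0.17 for the effectors and 0.03 for the peptide loading genes. They were -0.03 for the GTPases, -0.04 for the regulators and -0.15 for the other gamma targets. The adipocyte markers went the other way, with 9 of 10 higher in cafeteria samples and a median of 0.34. The groups did not overlap in these 9, against 14.7% of all genes with both cafeteria arrays higher. An unadjusted p under 0.05 with a higher cafeteria mean was found in 6, against 6.73% of all genes. The remaining marker, Cfd, read lower without overlap, at -0.40. The part of these cell types in the values of the interferon genes was not tested.

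**Figure D5:**
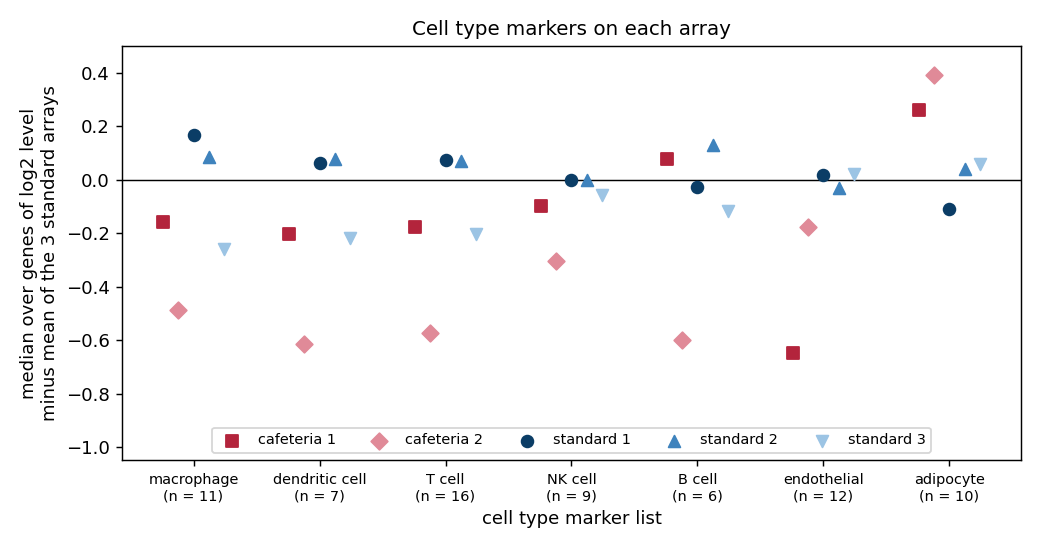
Median over the markers of each cell type of the log2 level relative to the mean of the 3 standard arrays (y axis), on each of 5 arrays (symbols). In the macrophage, dendritic cell and T cell lists standard replicate 3 lies below cafeteria replicate 1, and cafeteria replicate 2 is the lowest array.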

How the data were processed

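Values are log2 expression per probe set as the authors deposited them. Per the submitters' processing notes, the tools were RMA and affy, without versions. RMA makes array distributions alike and can hide a shift shared by most transcripts. Groups follow the diet named in each sample's labels. Of 31099 probe sets, 57 controls were left out, and the 21729 with a mean over the 5 arrays above the 30th percentile (4.28) were tested. All 41 members passed this filter.

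The test was limma's moderated one (lmFit, then eBayes; limma 3.58.1 in R 4.3.3), two-sided, with Benjamini-Hochberg adjustment over all 21729 probe sets and a threshold of 0.05; residual degrees of freedom were 3. P-values set each difference against the spread between these samples, moderated by the spread over all tested probe sets. The prior degrees of freedom of this moderation were 1.50. The fit was run on simulated arrays to check the size it estimates for added differences larger than most of those above. How often differences of the size seen here would be called was not tested. Figures used matplotlib 3.10.9.

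Symbols came from GEO's platform annotation. Promoters came from RefSeq's GRCr8 table, matched by gene identifier. No array build is given in the sources used here.

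The members and lists were chosen with earlier results of these data known. Genes given in full are the members of groups of at most 8, the 8 effectors with the smallest unadjusted p, members whose sign opposes the members' median and members whose probe sets differ in sign. Pathway lists are given by count, with examples. Alternatives were other filters, normalizations, variance models and gene summaries, array weights, a block for replicate number, and fits without 1 array at a time.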

Additional observations from a re-analysis of the deposited data

How the results depend on the processing

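No member was called at an adjusted p of 0.05 by limma or by ordinary least squares without moderation under any alternative run, and no probe set of the array was called in any of them. The count of members with an unadjusted p under 0.05, 19, was 8 with ordinary least squares, and 6 to 20 when 1 array was left out; where that left 1 cafeteria array, it was assumed to vary like the standard arrays. Over the whole array, leaving out 1 array gave 1986 to 4174 such probe sets, against 2754. Quantile and cyclic loess normalization left 38 of 41 members lower. The peptide loading median was -0.23 with the mean of a gene's probe sets, and the GTPase median was -0.74 to -0.53 when 1 array was left out. The Mx2 difference ranged from -0.53 to 0.78 and the Tap2 difference from -0.18 to 0.12 when 1 array was left out. Mx2 changed sign to -0.31 with the mean of its probe sets and to -0.53 without standard replicate 1, and Tap2 to -0.18 without standard replicate 2; the causes were not tested. Deviations of same-numbered arrays from their group means correlated at 0.08 for number 1 and -0.04 for number 2. With 2 cafeteria arrays these deviations mirror each other, so the values cannot decide whether replicate numbers pair the samples. With the replicate number as a block, 10 members and 2206 probe sets of the whole array had an unadjusted p under 0.05. With 2 against 3 arrays, differences near the spread of single arrays cannot be resolved.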
